A study of Homo sapiens with 10 samples.

Results

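The microRNA processing and Argonaute genes are DROSHA, DGCR8, XPO5, DICER1, TARBP2, AGO1, AGO2, AGO3, AGO4 and TNRC6A, 10 genes whose products make microRNAs and carry out silencing. Every probe set whose platform symbol names one of them was taken, which gave 38 of the 54613 probe sets that are not controls. Of these, 31 are annotated with 1 gene. They cover 9 of the 10 genes and enter every count. The other 7 list a second symbol and are described apart. They are all 4 probe sets of DGCR8, listed with the microRNA gene MIR1306, and 3 of the 4 of AGO2, listed with CASC7. The current RefSeq table gives CASC7 as a synonym of AGO2, so by that table these AGO2 probe sets name no other gene. They were kept apart because the platform lists another symbol. This leaves the AGO2 probe sets that rose out of the main counts. DROSHA has 1 probe set, TARBP2 2, XPO5 3, AGO1, AGO3 and AGO4 4 each, and DICER1 and TNRC6A 6 each.

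RNA came from cultured K562 cells, which are human, derive from chronic myeloid leukaemia and carry the BCR-ABL1 fusion, and from microvesicles, the membrane-bound particles that these cells release. Each group has 5 arrays from 5 experiments, with 100 ng of total RNA labelled per array. Both groups derive from 1 cell line, and the labels name no treatment, no engineered allele and no method of vesicle isolation. Whether samples of the same number share a culture is not stated, and the p-values cover only the spread between these samples, part of which may be technical. Values are log2 expression values, for which 1 unit is a 2-fold difference.

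In the canonical pathway the nuclear Microprocessor, made of the nuclease DROSHA and its RNA-binding partner DGCR8, cuts a hairpin out of the primary transcript. The export receptor XPO5 carries it to the cytoplasm, where DICER1 with its partner TARBP2 trims it to a short duplex. One strand is loaded into an Argonaute protein, and TNRC6A, a GW182 protein bound by Argonaute, recruits the enzymes that shorten poly(A) tails and block translation. Vesicles of many cells carry microRNAs, but these arrays measure messenger RNA of the machinery and say nothing of its proteins or of mature microRNAs.

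Some member genes themselves hold microRNAs, and the annotation of the DGCR8 probe sets names one of them. The ones below are those found within the member genes, of which AGO2 was not searched. MIR1306 and MIR3618 lie within DGCR8, whose transcript is known to carry hairpins that the Microprocessor can cut, and MIR3173 lies within DICER1. Capitals mark the seed, bases 2 to 8, in sequences of RefSeq on GRCh38.p14.
hsa-miR-1306-5p, chr22:20086072-20086093, plus strand: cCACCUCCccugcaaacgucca
hsa-miR-1306-3p, chr22:20086112-20086129, plus strand: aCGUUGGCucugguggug
hsa-miR-3618, chr22:20085797-20085818, plus strand: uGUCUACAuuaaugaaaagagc
hsa-miR-3173-5p, chr14:95137961-95137982, minus strand: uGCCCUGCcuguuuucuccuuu
hsa-miR-3173-3p, chr14:95137923-95137944, minus strand: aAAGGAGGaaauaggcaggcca
No seed is shared among these 5 sequences. The DGCR8 probe sets read labelled RNA of the host transcript, so their values are not levels of miR-1306.

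All 8 measured erythroid and K562 markers had means above the median of all values (4.19), at 5.73 to 12.28 in cells and 5.57 to 12.09 in microvesicles. Markers of other cell types were not uniformly low, and some differed between the group means. Of 4 lymphocyte markers CD3D stood at 8.18 in cells and 8.01 in microvesicles, and CD3E, MS4A1 and CD2 at 3.05 to 3.55 and 3.78 to 4.45. The epithelial marker EPCAM stood at 9.42 and 6.55, and KRT5 at 3.69 and 4.02. The fibroblast markers COL1A1 and COL3A1 stood at 6.48 and 3.57 in cells and 6.98 and 4.15 in microvesicles, the monocyte markers CD14 and CSF1R at 2.93 and 4.05 and at 3.48 and 4.88, and the hepatocyte markers ALB and APOA1 at 5.06 and 4.22 and at 3.5 and 4.9. The arrays of the groups also differed in the spread of all values, with an SD over probe sets of 2.33 to 2.36 on cell arrays and 1.89 to 1.99 on vesicle arrays, and medians of 4.08 to 4.12 and 4.22 to 4.28. Control probe sets for RNA integrity and ribosomal RNA separated the groups. ACTB signal at the 3' end exceeded that at the 5' end by 2.39 ± 0.15 on cell arrays and by 3.12 ± 0.34 on vesicle arrays (means ± SD of 5 arrays, adjusted p = 0.0119 by exact permutation over 3 checks). The same gap for GAPDH was 0.45 ± 0.064 against 0.62 ± 0.13 (adjusted exact p = 0.0159), and the 18S probe sets averaged 12.15 ± 0.26 against 10.55 ± 0.38 (adjusted exact p = 0.0119). These measures move with the groups in every result below, and their part in them was not tested.

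DICER1 and AGO3 were lower in microvesicles than in cells, by 4.26-fold and 3.07-fold in their brightest probe sets, and these were lower under each of 4 scalings (deposited, median centred, quantile normalized again, loess). DROSHA was also lower under each of the 4, as were 2 of the 6 probe sets of TNRC6A. For AGO2 all 4 changes were above 0, and the 2 that passed as higher (1 with arrays centred on their median) are listed with CASC7 and not counted, while its counted probe set 225827_at did not pass (0.26, limma adjusted p = 0.301). After loess and quantile normalization 225827_at did pass as higher (1.1 and 1.05). TARBP2 203677_s_at (1.18 and 1.19) and AGO1 228120_at (1.27 and 1.28) also passed as higher under those 2 scalings only. XPO5 had lower values in the deposited table, by about as much as the median of like probe sets in 2 of its 3, and DGCR8 had lower values by less than that median in all 4. Of the 31 member probe sets, 15 fell, 5 rose and 11 did not pass (limma, adjusted p under 0.05 over all probe sets). Over all 54613 probe sets 62.4% passed, 27% lower and 35.4% higher. The groups did not overlap in 14 member probe sets that were lower and in 3 that were higher (22% and 24% of all probe sets), and 11 passed with a fall of at least 2-fold (18% of all). The median change was -0.48 for the members and 0.27 for all probe sets. In bulk RNA of this kind, fewer vesicles with a transcript and fewer copies in each cannot be told apart.

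**Figure D1:**
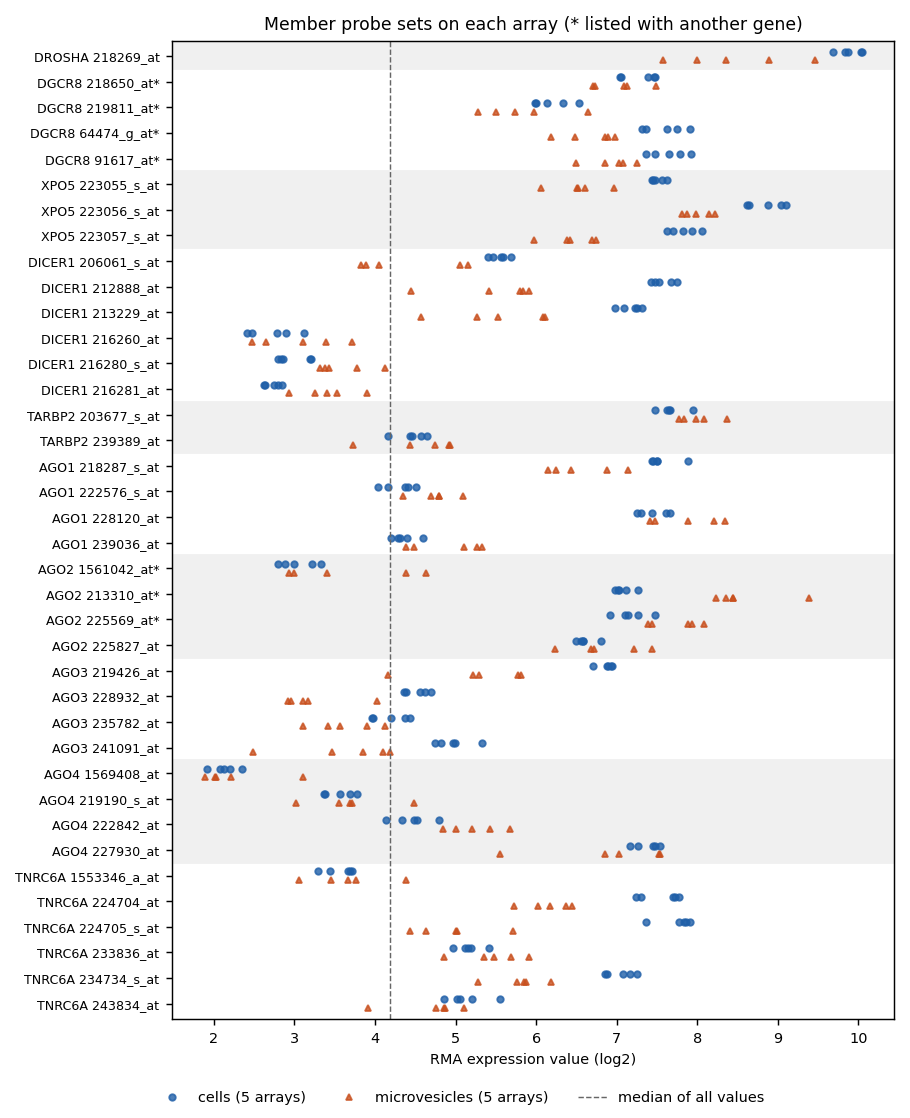
Log2 expression value (horizontal axis) of each of the 38 member probe sets on the 5 cell arrays (circles) and the 5 microvesicle arrays (triangles), with the median of all values, 4.19, as a dashed line. The groups lie apart for the 3 XPO5 probe sets and for AGO2 213310_at, in opposite directions, and the microvesicle arrays scatter more widely, with a median SD of 0.45 against 0.176 over the 31 probe sets with 1 gene.

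How far a probe set changed depended on its level over all genes, and this sets the scale for the members. Probe sets with a mean between 7 and 8 (averaged over all arrays) changed by -1.01 in the median, those between 6 and 7 of -1.0, and those between 2 and 3 of 0.58. Among the 15 member probe sets with a mean of at least 6, 11 fell, a share to be read against 63.2% of all probe sets that bright. None of the 15 rose (limma, also 0 at an unadjusted p under 0.05), against 7.31% of bright probe sets. This count leaves out the 7 probe sets set apart, of which 2 rose and 2 fell, all with means of at least 6. Those that rose were AGO2 213310_at and 225569_at, listed with CASC7 (1.49 and 0.57), and those that fell belong to DGCR8. After the loess described next, 3 of the 15 were higher and 7 lower, against 24.8% and 28.6% of bright probe sets. Among the 15 with a mean under 5, 5 rose and 4 fell, against 47% and 11.2% of all dim probe sets. After loess 1 of these was higher and 4 lower, against 13.4% and 16.7%. A loess fit of each array to the mean array reduces what probe sets of one level share. Medians of -0.21 between 6 and 7 and of -0.15 between 7 and 8 remained. The fit left 21785 of the probe sets past the threshold (39.9%, 21.3% lower and 18.6% higher). After it, 11 member probe sets were lower and 5 higher, with a median of -0.28. Of all probe sets that passed, 56.7% were higher in the deposited values, 46.5% after loess and 44.1% with arrays centred on their median. For the members these shares were 25%, 31.2% and 11.1%.

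**Figure D2:**
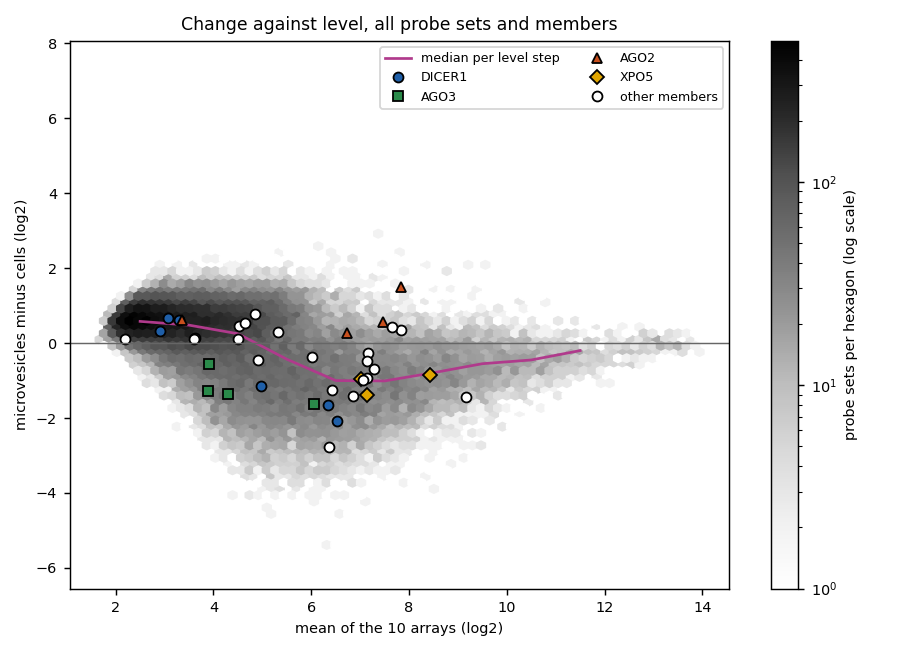
Change in log2 (microvesicles minus cells, vertical axis) against the mean of the 10 arrays (log2, horizontal axis) for all 54613 probe sets (grey hexagons, darker for more), the median per step of 1 log2 unit (line) and the member probe sets (symbols). The line falls to about -1.0 between 6 and 8. XPO5 lies on or near it, DICER1 at -2.09 and -1.66 and AGO3 at -1.62 lie below it, and AGO2 at 1.49, 0.57 and 0.26 lies above it.

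DROSHA, the nuclease of the Microprocessor, fell. Its probe set 218269_at read 10.03, 9.83, 9.68, 9.87 and 10.04 in cells replicates 1 to 5 and 9.46, 8.0, 8.36, 7.57 and 8.89 in microvesicles. Every vesicle array lay below every cell array, but the vesicle arrays spread more widely, with replicate 1 close to the cells. The mean fell from 9.89 ± 0.15 to 8.46 ± 0.74 (SD, n = 5 each), with a change of -1.43 ± 0.29 (SE, limma adjusted p = 0.000994). Bright probe sets of its level, between 9 and 10, had a median of -0.55, and after loess DROSHA stood at -0.72 (limma adjusted p = 0.0335).

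DGCR8, which recognises the hairpin for DROSHA, had 2 of 4 probe sets lower in the deposited values. Probe set 64474_g_at read 7.62, 7.37, 7.32, 7.75 and 7.91 in cells and 6.19, 6.98, 6.89, 6.86 and 6.48 in microvesicles, with no overlap, and changed by -0.92 ± 0.20 (limma adjusted p = 0.00152). Probe set 91617_at changed by -0.70 ± 0.19 (adjusted p = 0.00583). The groups overlapped in the other probe sets, 218650_at (-0.26, 95% interval -0.67 to 0.15) and 219811_at (-0.37, -0.88 to 0.15). The latter passed as lower without microvesicles replicate 4 (-0.57, limma adjusted p = 0.0195) and stood at -0.23 without replicate 5. All these falls are at most as large as the median of like probe sets (-1.01 or -1.0), and after loess they stood at -0.054, 0.17, 0.61 and 0.31, of which 218650_at was then higher (limma adjusted p = 0.0414). The direction for DGCR8 therefore depended on the scaling.

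XPO5, the export receptor of precursor hairpins, had all 3 probe sets lower with no overlap between the groups. The largest change was that of 223057_s_at, which read 7.82, 7.62, 7.70, 8.06 and 7.94 in cells and 6.74, 6.69, 6.42, 5.97 and 6.38 in microvesicles. It changed by -1.39 ± 0.18, and 223055_s_at and 223056_s_at by -0.97 ± 0.18 and -0.85 ± 0.17 (limma adjusted p = 3.28e-05, 0.000465 and 0.000823). The medians at these levels were -1.01, -1.01 and -0.79, so 223055_s_at and 223056_s_at changed about as much as the median of their level. After loess 223057_s_at stood at -0.53 (limma adjusted p = 0.0281) and the others at -0.11 and -0.052 (0.618 and 0.840). With quantile normalization repeated, the 3 stood between -0.50 and -0.073 and none passed (limma adjusted p = 0.0587 for 223057_s_at).

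DICER1, the cytoplasmic nuclease, fell in its 3 brighter probe sets. The brightest probe set, 212888_at, read 7.53, 7.48, 7.43, 7.75 and 7.67 in cells and 5.91, 5.84, 5.41, 4.45 and 5.80 in microvesicles. Even the highest vesicle array lay well below the lowest cell array. The means were 7.57 ± 0.13 and 5.48 ± 0.61 (SD, n = 5 each), a change of -2.09 ± 0.25 (limma adjusted p = 1.62e-05) where probe sets of like level had a median of -1.0.

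Probe sets 213229_at and 206061_s_at of DICER1 went the same way, at -1.66 ± 0.26 and -1.15 ± 0.26 (limma adjusted p = 0.000138 and 0.00228), and neither overlapped. In cells 213229_at read 6.98, 7.31, 7.23, 7.25 and 7.09, and in microvesicles 4.57, 5.27, 6.08, 6.11 and 5.53. Replicate 4 was thus the lowest vesicle array in 212888_at and the highest in 213229_at, so the order of the vesicle arrays was not shared by probe sets of 1 transcript. The mean of 206061_s_at, 4.97, lies at the edge of its level step. The median was 0.25 between 4 and 5, with 25.7% of probe sets lower, and -0.43 between 5 and 6, with 45.9% lower. Its change lay below both medians. After loess the 3 stood at -1.28, -0.88 and -1.02 (limma adjusted p = 0.00103, 0.0168 and 0.00654).

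The remaining 3 DICER1 probe sets lie in the dim range, with cell means of 2.73 to 2.97, below the median of all values. Without a detection call they are not known to exceed background. Of these, 216280_s_at and 216281_at, rose by 0.63 ± 0.19 and 0.68 ± 0.19 (limma adjusted p = 0.0117 and 0.00696), near the median of 0.48 at that level, and after loess they stood at 0.17 and 0.18 and did not pass. The third, 216260_at, did not pass (0.33, 95% interval -0.19 to 0.85).

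TARBP2, the double-stranded RNA-binding partner of DICER1, did not follow it. Probe set 203677_s_at read 7.65, 7.66, 7.48, 7.95 and 7.62 in cells and 7.98, 8.09, 7.83, 8.37 and 7.77 in microvesicles. The groups overlapped, and the change of 0.34 ± 0.17 did not pass (95% interval -0.027 to 0.70, limma adjusted p = 0.0955). Probe sets of like level had a median of -1.01, and after loess TARBP2 stood at 1.18 (limma adjusted p = 0.0002). Its dimmer probe set 239389_at changed by 0.097 ± 0.23 and did not pass.

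**Figure D3:**
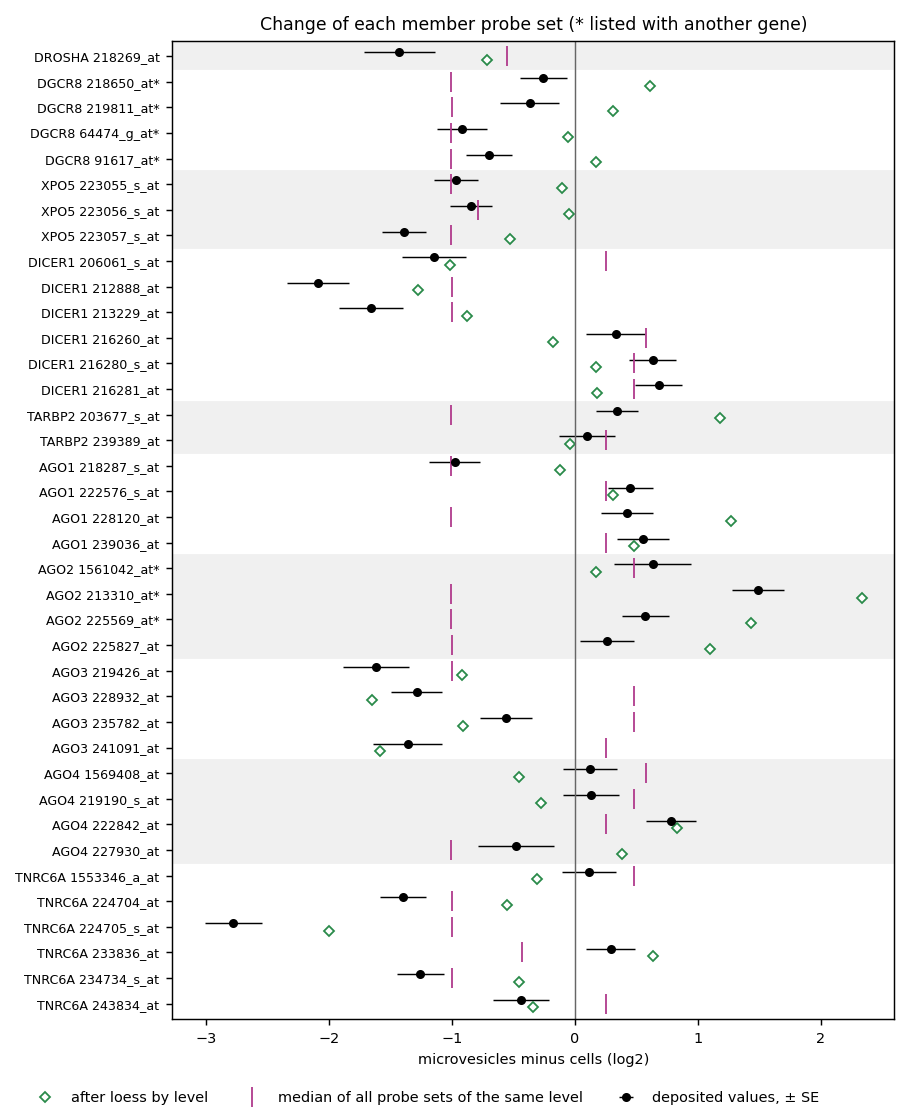
Change in log2 (microvesicles minus cells, horizontal axis) of each member probe set in the deposited values (filled circles with SE bars), after loess by level (open diamonds) and the median of all probe sets of the same level (upright marks). All 4 AGO3 probe sets lie left of 0 on both scales, from -0.56 to -1.62 in the deposited values, the 4 of AGO2 lie right of 0 on both, and those of XPO5 move to between -0.53 and -0.052 after loess.

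The 4 Argonautes bind the mature microRNA, and AGO2 is the one with well-established slicing activity. AGO4, AGO1 and AGO3 are neighbours in this order on chromosome 1. AGO2 213310_at, one of the probe sets also listed with CASC7, read 7.27, 7.12, 7.02, 6.98 and 7.03 in cells and 8.36, 9.39, 8.44, 8.23 and 8.44 in microvesicles. Every vesicle array was above every cell array, and replicate 2 was highest. The means were 7.08 ± 0.12 and 8.57 ± 0.47 (SD, n = 5 each), a rise of 1.49 ± 0.21 or 2.81-fold (limma adjusted p = 6.62e-05), where 9.96% of all probe sets passed with a rise of at least 2-fold.

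Probe set 225569_at of AGO2, with the same double listing, rose by 0.57 ± 0.19 (limma adjusted p = 0.0181), with overlap, and lost its call when cells replicate 3 was left out (limma adjusted p = 0.0542), with arrays centred on their median (0.0794) and in the exact rank sum test (0.0535). The AGO2 probe set with no second symbol, 225827_at, read 6.81, 6.56, 6.58, 6.49 and 6.58 in cells and 7.44, 7.22, 6.68, 6.24 and 6.72 in microvesicles. Here the groups overlapped, with vesicle replicate 4 below all cells, and the change of 0.26 ± 0.22 did not pass (95% interval -0.20 to 0.72, adjusted p = 0.301). It was 0.11 without microvesicles replicate 1 and 0.41 without replicate 4, and passed in neither case. The dim 1561042_at, also listed with CASC7, changed by 0.63 ± 0.31 and did not pass, but passed without microvesicles replicate 1 (0.79, limma adjusted p = 0.041) or 4 (0.81, 0.0354), and stood at 0.39 without replicate 2. The bright probe sets have like-level medians of -1.01, -1.01 and -1.0. After loess 213310_at, 225569_at and 225827_at stood at 2.33, 1.43 and 1.10 (limma adjusted p = 3.56e-06, 2.77e-05 and 0.000671), and repeating the quantile normalization also left all 3 higher.

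AGO3 fell in all 4 of its probe sets. The brightest, 219426_at, read 6.93, 6.88, 6.94, 6.70 and 6.89 in cells and 5.77, 4.16, 5.29, 5.81 and 5.22 in microvesicles. The cell arrays lay close together and all above the vesicle arrays, of which replicate 2 was lowest. The means were 6.87 ± 0.10 and 5.25 ± 0.67 (SD, n = 5 each), a change of -1.62 ± 0.27 (limma adjusted p = 0.000217).

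The dimmer AGO3 probe sets went the same way although the medians at their levels were positive, at 0.48, 0.48 and 0.25. Their vesicle means of 3.24, 3.62 and 3.61 lay below the median of all values (4.19). Without a detection call these vesicle values are not known to exceed background. The cell mean of 235782_at was itself 4.19. Probe set 228932_at read 4.56, 4.38, 4.36, 4.69 and 4.62 in cells and 2.92, 3.11, 3.17, 2.96 and 4.02 in microvesicles, a change of -1.29 ± 0.21 (limma adjusted p = 0.000208). Its groups did not overlap, as in 22% of all probe sets in this direction. Probe set 241091_at changed by -1.36 ± 0.28 (adjusted p = 0.00121), also with no overlap. The smallest fall was that of 235782_at, -0.56 ± 0.21 (adjusted p = 0.0293), whose groups overlapped. It did not pass without cells replicate 2, 4 or 5 (0.0575, 0.0724 and 0.0703) or microvesicles replicate 2 or 4 (0.064 and 0.0545), nor in the exact rank sum test (0.0535) or with array weights (0.0656). After loess 219426_at, 228932_at, 235782_at and 241091_at stood at -0.92, -1.65, -0.91 and -1.59, all past the threshold.

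AGO1 gave opposite answers in its brightest probe sets. Probe set 228120_at read 7.44, 7.30, 7.25, 7.66 and 7.61 in cells and 8.35, 7.89, 8.21, 7.47 and 7.41 in microvesicles. Vesicle replicates 1, 2 and 3 lay above all cell arrays and replicates 4 and 5 among them, and the change of 0.42 ± 0.21 did not pass (95% interval -0.03 to 0.86, limma adjusted p = 0.0934). Without microvesicles replicate 4 or 5 it passed, at 0.51 and 0.53 (0.0445 and 0.0337). Probe set 218287_s_at read 7.50, 7.50, 7.45, 7.88 and 7.44 in cells and 6.25, 6.88, 6.15, 7.14 and 6.43 in microvesicles, and fell by 0.98 on the log2 scale (SE 0.21, adjusted p = 0.00133). The median of its level was -1.01, and after loess 218287_s_at stood at -0.12 and 228120_at at 1.27 (limma adjusted p = 0.721 and 8.12e-05).

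The dim AGO1 probe sets 222576_s_at and 239036_at rose by 0.45 ± 0.18 and 0.55 ± 0.21 (limma adjusted p = 0.0416 and 0.0341), with overlapping groups. Each of these calls was lost when any of 7 arrays was left out, with adjusted p between 0.0574 and 0.104 for the first and between 0.058 and 0.0744 for the second. Cells replicates 1, 2, 4 and 5 and microvesicles replicates 2 and 3 were such arrays for both, microvesicles replicate 4 for the first and replicate 1 for the second. Neither passed after loess, after repeated quantile normalization or with arrays centred on their median.

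AGO4 had 1 probe set of 4 that passed. Probe set 222842_at read 4.48, 4.52, 4.80, 4.14 and 4.33 in cells and 5.43, 4.85, 5.01, 5.67 and 5.20 in microvesicles, just without overlap, and rose by 0.78 ± 0.20 (limma adjusted p = 0.00391) and by 0.83 after loess. The bright 227930_at read 7.45, 7.54, 7.47, 7.17 and 7.27 in cells and 6.85, 7.53, 7.54, 7.03 and 5.55 in microvesicles. Only replicates 1, 4 and 5 were below the cells, and the change of -0.48 ± 0.31 did not pass (95% interval -1.15 to 0.19) and stood at -0.14 without microvesicles replicate 5. The 2 dimmest, 1569408_at and 219190_s_at, had cell means of 2.13 and 3.56 and changes of 0.12 and 0.13 that did not pass.

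TNRC6A, the GW182 scaffold that links Argonaute to deadenylation, had the largest fall of any member probe set. Probe set 224705_s_at read 7.77, 7.83, 7.91, 7.37 and 7.86 in cells and 4.63, 4.44, 5.71, 5.02 and 5.01 in microvesicles. The groups lay far apart, although cells replicate 4 was below the other cells. The means were 7.75 ± 0.22 and 4.96 ± 0.49 (SD, n = 5 each), a change of -2.78 ± 0.23 or 6.89-fold lower (limma adjusted p = 6.58e-07), and -2.0 after loess.

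Probe sets 224704_at and 234734_s_at of TNRC6A fell by less, -1.40 ± 0.19 and -1.26 ± 0.19 (limma adjusted p = 4.15e-05 and 9.24e-05), both below the like-level median of -1.0. In 224704_at the cell arrays read 7.73, 7.30, 7.24, 7.70 and 7.77 and the vesicle arrays 6.17, 6.02, 6.37, 6.44 and 5.73. After loess 224704_at stood at -0.55 and passed (adjusted p = 0.0297), and 234734_s_at at -0.46 and did not (0.0622). The other three, 243834_at (-0.44), 1553346_a_at (0.11) and 233836_at (0.29), did not pass, and the last was higher after loess (0.63, adjusted p = 0.0217) and without microvesicles replicate 1 (0.44, adjusted p = 0.0382).

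Whether probe sets of 1 gene changed equally was tested on the within-array difference between the brightest and the next brightest, for the 7 genes with at least 2 probe sets of 1 gene. It changed in 3 of the 7 (exact permutation p under 0.05), a share near that of all 10523 genes with such a pair (40.6%), so the count says nothing particular of the members. For AGO1 the difference of 228120_at minus 218287_s_at went from -0.11 ± 0.17 in cells to 1.29 ± 0.76 in microvesicles (means ± SD of 5 arrays; p = 0.00794 by exact permutation, which can go no lower here, adjusted p = 0.0278 over the 7 and 0.031 over all such genes). In AGO4, 227930_at minus 222842_at went from 2.93 ± 0.15 to 1.67 ± 0.96 (exact permutation p = 0.0159, adjusted p = 0.037 and 0.0528), and for XPO5, 223056_s_at minus 223057_s_at from 1.03 ± 0.087 to 1.56 ± 0.37 (exact permutation p = 0.00794, adjusted p = 0.0278 and 0.031). With any cell array left out none of the 3 passed (adjusted p = 0.0556 for AGO1 and XPO5 and 0.0741 to 0.13 for AGO4). The differences of changes hardly moved, at 1.37 to 1.47 for AGO1, 0.51 to 0.57 for XPO5 and -1.33 to -1.24 for AGO4. With 5 arrays against 4 the exact test has few possible p-values. AGO1 passed after loess and after repeated quantile normalization too, whereas AGO4 did not, at -0.44 and -0.53 in place of -1.26, and XPO5 missed the threshold after the latter (0.0556). After both TARBP2 passed, with 203677_s_at above 239389_at by 1.22 and 1.15 more in microvesicles than in cells (adjusted p = 0.0278 over the 7 by exact permutation). After loess 41.4% of all such genes had an exact p under 0.05. For DICER1 and AGO3 the brightest probe sets differed in change by -0.43 and -0.26 (exact permutation p = 0.468 and 0.659), with SDs of 1.2 in microvesicles for both against 0.20 and 0.26 in cells.

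With 1 probe set per gene, the brightest with a single gene, 5 of the 9 member genes measured fell, against 31.2% of all 19775 genes. These were DROSHA, XPO5, DICER1, AGO3 and TNRC6A. None rose (limma, 0 also at an unadjusted p under 0.05), against 35.5% of all genes. The member genes are brighter than most, with a median level of 7.14 against 5.07. Of all probe sets with a mean of at least 6, 63.2% were lower and 7.31% higher, so the shares over all genes are not those of like level. AGO2 was read here by 225827_at, because its brighter 213310_at and 225569_at, which rose, are listed with CASC7. After loess 4 of the 9 were lower (DROSHA, DICER1, AGO3 and TNRC6A) and 3 higher (TARBP2, AGO1 and AGO2), against 18.3% and 26.9% of all genes, of which 45.2% passed. XPO5 then stood at -0.052 and did not pass. Averaged over all its probe sets DICER1 stood at -0.54 ± 0.11, since its dim probe sets draw it towards 0, AGO3 at -1.21 ± 0.15, XPO5 at -1.07 ± 0.13 and TNRC6A at -0.91 ± 0.14. These 4 and DROSHA passed that way too (limma adjusted p between 2.62e-05 and 0.000863).

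Other genes of the pathway were read from 7 lists, with 68 of 71 genes measured. In the deposited values 47 fell and 5 rose, with a median of -0.80 against 0.20 over all genes, of which 66.6% passed, 31.2% lower and 35.5% higher. These lists are brighter than most genes, with a median level of 8.03 against 5.07. After loess 24 fell and 11 rose with a median of -0.26, against 18.3% lower and 26.9% higher among all genes.

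**Figure D4:**
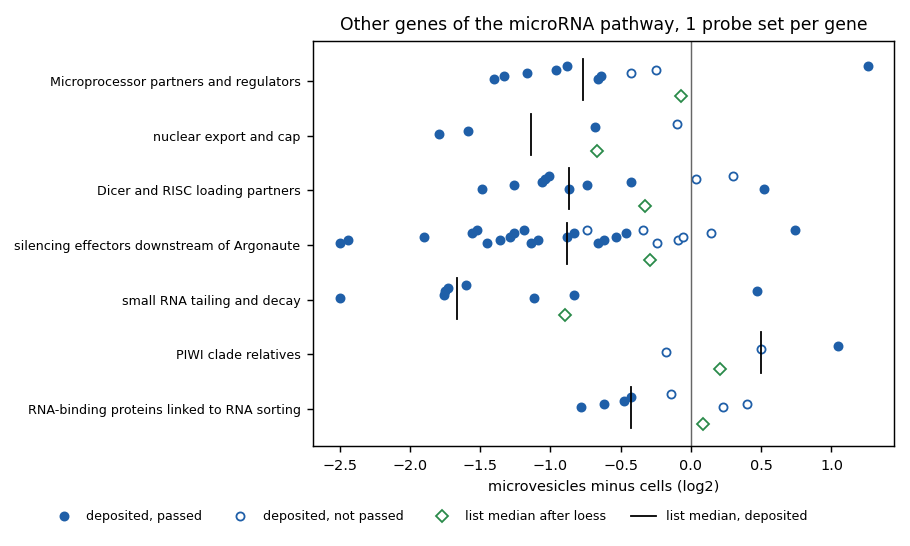
Change in log2 (microvesicles minus cells, horizontal axis) of the genes in 7 lists around the microRNA pathway, 1 probe set per gene (filled circles passed, open circles did not), with the list median in the deposited values (line) and after loess (diamond). The tailing and decay list lies furthest left, with medians of -1.67 and -0.89, and the PIWI relatives lie at 0.50 and 0.21.

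Small RNA tailing and decay genes had the lowest medians. Of 8 genes 7 fell and 1 rose (median -1.67, and -0.89 after loess with 5 lower and 1 higher). TUT4, which adds uridines to precursor and mature microRNAs, fell from 7.30 ± 0.053 to 4.79 ± 0.63 (SD, n = 5 each), a change of -2.50 ± 0.25 (limma adjusted p = 4.54e-06). ERI1, an exonuclease of small RNAs and histone messages, changed by -1.76 ± 0.18. Averaged over their 2 probe sets TUT4 stood at -1.39 and ERI1 at -1.92. The rise was that of DIS3L2, the exonuclease of uridylated RNA (0.47 ± 0.19, limma adjusted p = 0.0427), whose mean over 4 probe sets was -0.31. That call was lost without any 1 cell array or without microvesicles replicate 1, 2 or 5 (limma adjusted p = 0.0589 to 0.0987).

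Silencing effectors that act after Argonaute fell in 18 of 25 genes and rose in 1 (median -0.88, and -0.29 after loess with 8 lower and 3 higher). The deadenylase subunit gene PAN3 changed by -2.50 ± 0.28 and the 5' exonuclease gene XRN1 by -2.44 ± 0.27 (-1.64 and -1.84 after loess). Averaged over its 4 probe sets XRN1 stood at -1.18, and PAN3 has 1 probe set. CNOT3, of the CCR4-NOT complex, rose by 0.74 ± 0.24 from a cell mean of 4.12 and did not pass after loess, median centring or repeated quantile normalization (limma adjusted p = 0.0618, 0.0521 and 0.0674) or as the mean of its 3 probe sets (0.26, 0.137). TNRC6B and TNRC6C, paralogs of TNRC6A, did not pass in their brightest probe sets (-0.74 and -0.34). Over 7 probe sets each their means passed in opposite directions (-0.66 and 0.41, limma adjusted p = 0.00617 and 0.0049), and TNRC6C was lower after loess (-0.44, 0.032). Nuclear export and cap genes fell in 3 of 4 (median -1.14, and -0.67 after loess with 2 lower and 1 higher), led by NCBP1 of the cap-binding complex (-1.79 ± 0.30) and the exportin gene XPO1 (-1.59 ± 0.17).

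Among Dicer and RISC loading partners 8 of 11 fell and 1 rose (median -0.87, and -0.33 after loess with 5 lower and 3 higher). The translin gene TSN, a subunit of the nuclease that clears passenger strands, changed by -1.49 ± 0.15 and the importin gene IPO8 by -1.26 ± 0.17. Averaged over their probe sets TSN stood at -1.53 and IPO8 at -0.52. The chaperone gene DNAJB1 rose by 0.52 ± 0.21 (limma adjusted p = 0.0452), with a mean over its 2 probe sets of -0.022. Its call was lost without cells replicate 1, 2, 3 or 5 or microvesicles replicate 2, 3 or 4 (limma adjusted p = 0.0537 to 0.112). Microprocessor partners and regulators fell in 7 of 10 and rose in 1 (median -0.77, and -0.07 after loess with 3 lower and 1 higher). SRRT, which links the cap to the Microprocessor, changed by -1.40 ± 0.19 and the helicase gene DDX5 by -1.33 ± 0.21, the latter not past the threshold after loess (-0.50). The mean over the 5 SRRT probe sets was only -0.34 (limma adjusted p = 0.0452). LIN28A rose by 1.26 ± 0.18 from a cell mean of 1.81, deep in the dim range.

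RNA-binding proteins linked to sorting of RNA into vesicles fell in 4 of 7 (median -0.43, and 0.088 after loess with 1 lower and 1 higher). HNRNPA2B1 and NCL changed by -0.78 ± 0.18 and -0.62 ± 0.17, the latter not past the threshold after loess (-0.18), after repeated quantile normalization (-0.26) or as the mean of its 2 probe sets (-0.051). Averaged over its 4 probe sets HNRNPA2B1 stood at -1.62 (limma adjusted p = 2.01e-06). Among PIWI relatives, germline Argonautes, 1 of 3 rose. PIWIL1 went from 1.94 to 2.99 (1.05 ± 0.18), below the median of all values in both groups.

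The genes whose profile over the 10 arrays was most like that of DICER1 212888_at, each centred on its own mean, were SELENOI, ATP2A2 and NCAPD3, with root mean square differences of 0.183, 0.185 and 0.195 log2 units and changes of -2.27, -2.09 and -1.97. For AGO2 225827_at they were KLRC3, MRPS18A and MCF2L-AS1, with differences of 0.117, 0.119 and 0.129 and changes of 0.20, 0.18 and 0.28. KLRC3 and MCF2L-AS1 lay below the median of all values in both groups, with means of 2.34 and 2.54, and 3.24 and 3.52, so their likeness to AGO2 is that of nearly flat profiles.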

How the data were processed

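The deposited table holds log2 expression values per probe set, made by the authors with RMA, per the submitters' processing notes. The sources used here do not name its version. The same mass of RNA was labelled for each array, so a different total amount of RNA is not visible. The distributions of the deposited values differ between the groups. Genes were named from the platform annotation of 2016, updated through gene numbers. Microvesicles were compared with cells by limma 3.58.1 in R 4.3.3 (lmFit, eBayes, 1 mean per group, 2-sided), with Benjamini-Hochberg adjustment over 54613 probe sets after 17 controls were left out, or over 19775 genes with 1 probe set each. The number of arrays limits the precision. On simulated data with 50 probe sets changed at each size among 54613, limma called 50, 48, 45 and 50 at log2 changes of -3, -2, 2 and 3, and 13 unchanged ones. In the deposited values 62.4% of all probe sets passed, and their median SD was 0.15 in cells and 0.464 in microvesicles. How many changed and unchanged probe sets limma calls under those conditions was not tested. Members, lists and tests were chosen with earlier results of these data known. Named were all members, up to 2 rises and 2 falls per list, and the 3 profiles most like DICER1 and AGO2. TNRC6B and TNRC6C were added as paralogs of a member, with values seen. Alternatives were the replicate block, median centring, quantile normalization, loess, filters, variance trend, array weights, rank sum test, mean of probe sets and leaving out each array. Same-numbered samples had correlated deviations of -0.025 to 0.11. The best match was nevertheless the sample of the same number for replicates 1, 3, 4 and 5, though not for 2. Whether same-numbered samples are pairs is thus not settled. The main fit did not take them as pairs, and the replicate block is given as an alternative.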

Additional observations from a re-analysis of the deposited data

Results flagged for a closer look

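In 7 of 76 sets of 5 arrays (38 probe sets in 2 groups) the highest or lowest array lay far from the other four by Dixon's test, which chance does in about 1 of 20. In cells, replicate 4 was high in AGO1 218287_s_at (7.88, the others 7.44 to 7.50) and low in AGO3 219426_at (6.70, the others 6.88 to 6.94) and TNRC6A 224705_s_at (7.37, the others 7.77 to 7.91). Cells replicate 1 was high in AGO2 225827_at (6.81, the others 6.49 to 6.58). In microvesicles, replicate 2 was high in AGO2 213310_at (9.39, the others 8.23 to 8.44), replicate 5 in AGO3 228932_at (4.02, the others 2.92 to 3.17) and replicate 3 in AGO4 1569408_at (3.11, the others 1.89 to 2.21).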

How the results depend on the processing

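Of the member probe sets, 10 to 16 were lower under each scaling, filter and alternative test and the replicate block, against 15 as reported. Rises depended more on the setting. The count of 5 became 2 with arrays centred on their median and 3 with the rank sum test, and it was 3 to 6 without 1 array (14 to 15 lower). With probe sets at or above the median only it was 3, and with those at or above 6 it was 0, because these filters leave out dim probe sets. All 5 rises had means under 5, so none of them was tested under the filter at 6. That 0 therefore says nothing of how the rises depend on the setting. Counting the 7 probe sets with a second symbol, chosen after seeing the data, gave 7 higher and 17 lower. With the replicate block 15 were lower and 4 higher, and of the member probe sets AGO1 222576_s_at alone lost its call (adjusted p = 0.0719). Among pathway genes DIS3L2 lost its call under the block (0.0688). Member genes higher rose from 0 to 3 after loess and after quantile normalization and to 1 with array weights, and were 0 to 2 without 1 array (5 lower each time). Pathway genes higher were 11 after loess and after quantile normalization, with 24 and 21 lower, 2 with median centring, 3 and 2 under the filters, and 3 to 6 without 1 array (43 to 48 lower). Genes with unequal probe sets were 0 to 3 without 1 array, and 2 when adjusted over all genes, chosen after seeing the data. The cause of these differences was not tested.

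Signs turned for the following. With median centring these were TARBP2 239389_at (-0.062), AGO4 1569408_at (-0.038) and 219190_s_at (-0.024) and TNRC6A 1553346_a_at (-0.054). After quantile normalization they were DGCR8 218650_at (0.66), 219811_at (0.25), 64474_g_at (0.0081) and 91617_at (0.23), DICER1 216260_at (-0.10), AGO4 1569408_at (-0.26), 219190_s_at (-0.14) and 227930_at (0.39) and TNRC6A 1553346_a_at (-0.19). After loess they were DGCR8 218650_at (0.61), 219811_at (0.31) and 91617_at (0.17), DICER1 216260_at (-0.18), TARBP2 239389_at (-0.043), AGO4 1569408_at (-0.46), 219190_s_at (-0.28) and 227930_at (0.38) and TNRC6A 1553346_a_at (-0.31). With 1 array left out AGO4 1569408_at ranged from -0.094 (without microvesicles replicate 3) to 0.21, AGO4 219190_s_at from -0.064 to 0.30 and TNRC6A 1553346_a_at from -0.074 to 0.26 (both lowest without microvesicles replicate 5). The difference between the AGO3 probe sets turned after quantile normalization (0.41), after loess (0.67) and without microvesicles replicate 2 (0.14), in a range of -0.67 to 0.14 with 1 array left out. When probe sets were averaged per gene, 1 member gene turned, AGO4 (0.14), and 10 pathway genes. These were DNAJB1 (-0.022), DIS3L2 (-0.31), MOV10 (-0.74), EDC3 (-0.55), KHSRP (0.13), ZC3H7B (0.2), FKBP4 (0.15), PABPC1 (0.23), ZSWIM8 (0.15) and TNRC6C (0.41). Only the means of MOV10, EDC3 and TNRC6C passed (limma adjusted p = 0.00726, 0.00408 and 0.0049).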
